A study of Saccharomyces cerevisiae with 12 samples.

Results

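Transfer RNA genes were examined as sites of RNA polymerase II (Pol II) peaks in budding yeast, Saccharomyces cerevisiae, with and without the DEAD-box RNA helicase Dbp2. The members were all genes of biotype tRNA on the 16 nuclear chromosomes of the RefSeq gene table of assembly R64, which gave 275 of 6431 nuclear genes. No measured value entered this choice. Both strains were MATa with his3Δ1, leu2Δ0, met15Δ0 and ura3Δ0 and expressed Rpb3 with a 3XFLAG tag, and the mutant also carried dbp2::KanMx6 in place of DBP2. Cells were grown in YP medium with 2% glucose at 30 °C and fixed in 1% formaldehyde for 15 min. Each strain contributed 3 anti-FLAG immunoprecipitates and 3 inputs, 12 libraries in all, and the deposited result is 1 list of peaks per strain from the pooled libraries. The lists carry no value per replicate, so the spread between replicates is unknown and the strains could not be tested against each other. All differences below are descriptions of these lists.

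In yeast, tRNA genes are transcribed by RNA polymerase III (Pol III) and not by Pol II. Their promoter lies inside the gene, in the A and B boxes, where the factor TFIIIC binds and places TFIIIB just upstream of the start of transcription, and TFIIIB then recruits Pol III. Rpb3 is a subunit of Pol II alone, and its counterpart in Pol I and Pol III is the product of RPC40. Many tRNA genes lie close to a protein-coding gene, so a peak over one of them can be the peak of that neighbour.

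The immunoprecipitates of the wild type held 3648848 fragments after duplicate removal and those of dbp2Δ 4030024, pooled over the 3 libraries. The peak lists were of similar size, with 1642 and 1628 peaks, a median width of 886 and 988.5 bp and a shortest peak of 260 and 290 bp. DBP2 itself was covered over 100% of its length by a wild-type peak and over 0% in the dbp2Δ list. Depth, fragment size and peak width all moved with the strain, and their part in the counts below was not tested. Fold enrichment, the authors' ratio of immunoprecipitate to local background, is given for the summit, the highest point of a peak. The lists were scaled separately, so where a gene has a value from each, the wild-type value comes first and no direction is drawn.

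More tRNA genes lay under a peak in the dbp2Δ list than in the wild-type list. Coverage of 50% or more of the gene counted as having a peak. By this rule 33 of 275 (12%) had a wild-type peak and 63 (22.9%) a dbp2Δ peak. All 33 wild-type members were also covered in the dbp2Δ list, 30 (10.9%) were covered in dbp2Δ alone, 0 in the wild type alone, and 212 (77.1%) in neither list. Among all nuclear genes, 20.5% had a wild-type peak and 21.6% a dbp2Δ peak, with 3.92% covered by dbp2Δ peaks alone and 2.85% by wild-type peaks alone. Among the 6002 protein-coding genes these shares were 19.9%, 20.6%, 3.70% and 3.00%. The share of tRNA genes was thus below the background in the wild-type list and near it in the dbp2Δ list, and the share covered in dbp2Δ alone was above it. These shares are not like for like, since the rule asks for fewer covered bases at a short gene than at a long one. The part of gene length in them was not tested.

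Coverage of a tRNA gene was mostly complete or absent. The genes are short, with lengths from 71 to 133 bp and a median of 73 bp. The whole gene was covered for 28 members in the wild-type list and 56 in the dbp2Δ list, and 234 and 209 were at 0%. No tRNA gene was overlapped by more than 1 peak of a list, and no peak covered 2 tRNA genes, so each covered member stands for a peak of its own. Just inside the threshold were YNCL0049C (56.0%) and YNCB0006W (56.1%) in the wild-type list and TRR4 (54.2%) and YNCN0009W (58.3%) in the dbp2Δ list. Just outside it were YNCG0041W (46.6%) in the wild-type list and YNCE0026W (41.9%) and YNCD0023C (40.2%) in the dbp2Δ list. Genes of up to 75 bp were covered in 22 of 192 (11.5%) and 45 of 192 (23.4%), and longer ones in 11 of 83 (13.3%) and 18 of 83 (21.7%), so the dbp2Δ share was the higher one in both length classes.

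Peaks over tRNA genes fell into those that also covered a protein-coding gene and those that did not. The gene table does not mark genes of transposable elements, so any among the neighbours count here as protein-coding. Their part in the counts was not tested. In the wild type, 23 of the 33 covered at least 50% of a protein-coding gene as well, 5 overlapped only part of one, and 5 overlapped none. In dbp2Δ the same classes held 35, 13 and 15 of 63. Peaks that covered a tRNA gene and no protein-coding gene therefore numbered 10 in the wild-type list and 28 in the dbp2Δ list. They were a small part of all peaks that covered no protein-coding gene, which numbered 816 and 758. Peaks of any kind that overlapped no protein-coding gene at all were rare and similar in number, 50 in the wild-type list and 59 in the dbp2Δ list. A tRNA gene lay under 5 and 15 (25.4%) of these, another non-coding gene under 3 and 1, and no gene under 42 and 43. Between the lists, it was thus the tRNA gene class of these peaks that differed most in number.

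Each of the 10 tRNA genes with such a peak in the wild-type list also had one in the dbp2Δ list. The highest was YNCE0004C (chromosome V, 61890 to 61960), with a fold enrichment of 8.87 in the wild-type list and 7.14 in the dbp2Δ list. Its peaks also held the snoRNA genes SNR67 and SNR53, which Pol II transcribes, and the wild-type summit lay 630 bp downstream of the 5′ end of the tRNA gene. YNCG0002C (chromosome VII, 73829 to 73902) followed at 3.77 and 6.57, in peaks that overlapped part of MTC3. YNCI0005W (chromosome IX, 210665 to 210738) had 3.1 and 3.38, beside AIR1, which encodes an RNA-binding subunit of the TRAMP polyadenylation complex. YNCC0001C (chromosome III, 82462 to 82533) had 2.71 and 4.71, and its summit was at the same base in both lists, 101 bp upstream of the 5′ end. The nearest protein-coding gene of these 4 was below 50% covered in both lists, and only the peaks at YNCE0004C held another annotated non-coding gene.

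The other wild-type members of this class had lower values. YNCE0012W (chromosome V, 177099 to 177170) had 2.60 and 4.34, and PRE1, a proteasome subunit gene 665 bp away, had a separate peak in both lists. YNCK0003W (2.00 and 1.99) lay beside YKT6, which encodes a SNARE protein, and YNCO0016W (1.85 and 3.54) beside the lipase gene LPL1. YNCL0049C (1.72 and 1.54), YNCM0033C (1.70 and 2.63) and YNCN0011W (1.68 and 2.80) were the lowest in the wild-type list. Of the 10, 6 ranked in the upper 50% of the wild-type list by fold enrichment.

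Another 2 tRNA genes were covered in both lists, by a peak that covered protein-coding genes in the wild-type list and by one that covered none in the dbp2Δ list. YNCM0020W (chromosome XIII, 363064 to 363135; 2.49 in the wild-type list, 5.57 in the dbp2Δ list) lay under a wild-type peak that covered 2 protein-coding genes, YMR045C and YMR046C. YNCP0022W (chromosome XVI, 856902 to 856974; 4.48 and 4.53) likewise shared its wild-type peak with 2 protein-coding genes, and that peak had its summit at -2966 bp, upstream of the tRNA gene. The protein-coding genes it overlapped were YPR158W-B, YPR158C-D and YPR158C-C. In dbp2Δ the summits at YNCM0020W and YNCP0022W lay 81 and 103 bp upstream of the tRNA gene. The dbp2Δ peak at YNCM0020W still overlapped part of 3 protein-coding genes, and that at YNCP0022W overlapped 0. At both genes a separate dbp2Δ peak farther upstream also overlapped the wild-type peak. It ended at -1132 bp from the 5′ end of YNCM0020W and at -938 bp from that of YNCP0022W. The part that the splitting of peaks had in this class was not tested.

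**Figure D1:**
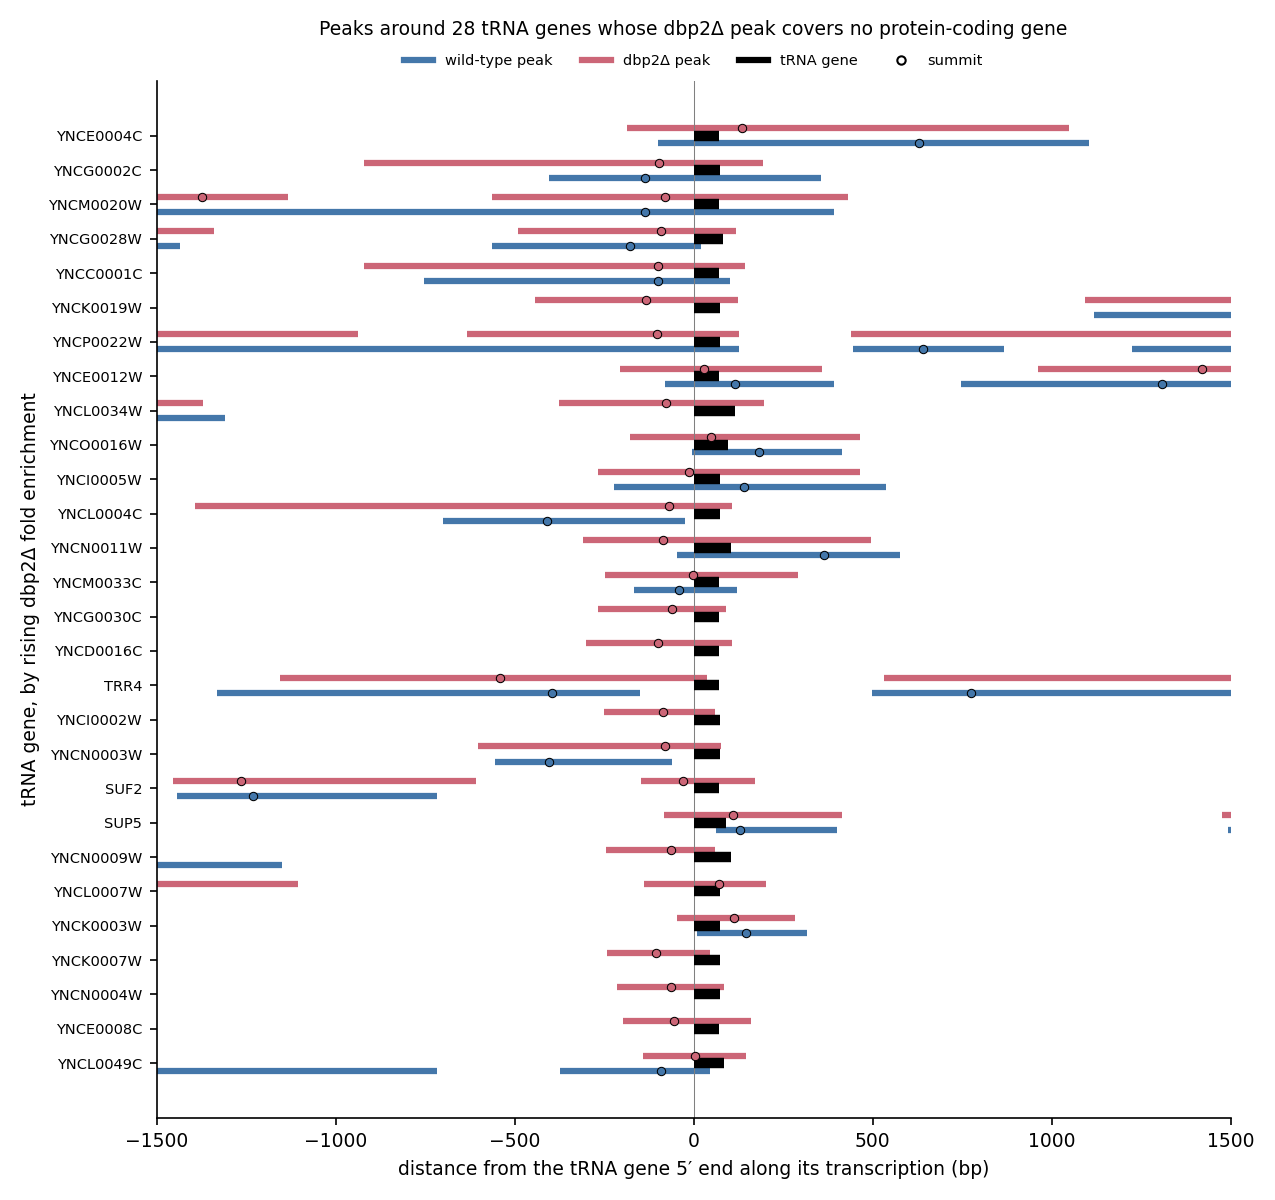
Peaks of the wild type (blue) and dbp2Δ (red) around the 28 tRNA genes (black) whose dbp2Δ peak covers no protein-coding gene, aligned at the 5′ end of each gene along its transcription, within 1500 bp. Circles are summits. Most dbp2Δ summits lie just upstream of the tRNA gene, and 11 of the dbp2Δ peaks are overlapped by no wild-type peak.

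The remaining 16 of the 28 were covered in dbp2Δ alone, and 11 of these peaks met no wild-type peak at all. YNCK0019W (chromosome XI, 517988 to 518060) had the highest fold enrichment of the 11, at 4.65, with 0% covered in the wild-type list, where the nearest peak ended 1047 bp away. YNCL0034W (chromosome XII, 628383 to 628497) had 4.13, with the nearest wild-type peak 1308 bp away, and its dbp2Δ peak overlapped 17.7% of ERF2, which encodes a subunit of a palmitoyltransferase. Next came YNCG0030C (chromosome VII, 707108 to 707179) at 2.54 and YNCD0016C (chromosome IV, 802731 to 802802) at 2.51, the latter 5404 bp from any wild-type peak. The nearest protein-coding gene of each of these 4 was below 50% covered in both lists.

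SUF2 (chromosome III, 123577 to 123648; 2.18), a gene named for frameshift suppression, was the only one of the 11 with a symbol of its own. YNCI0002W had 2.38, YNCN0009W 2.00 and YNCL0007W 1.99. The lowest were YNCK0007W (1.78), YNCN0004W (1.78) and YNCE0008C (1.58), beside PGM1, the cell wall sensor gene WSC2 and VAC8. The 5 that met a wild-type peak were YNCG0028W (chromosome VII, 700675 to 700756; 4.77), YNCL0004C (3.29), TRR4 (2.48), YNCN0003W (2.36) and SUP5 (2.06). SUP5 encodes a tyrosine tRNA known from nonsense suppression. Of all 28, 21 ranked in the upper 50% of the dbp2Δ list, whose median fold enrichment was 2.04.

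**Figure D2:**
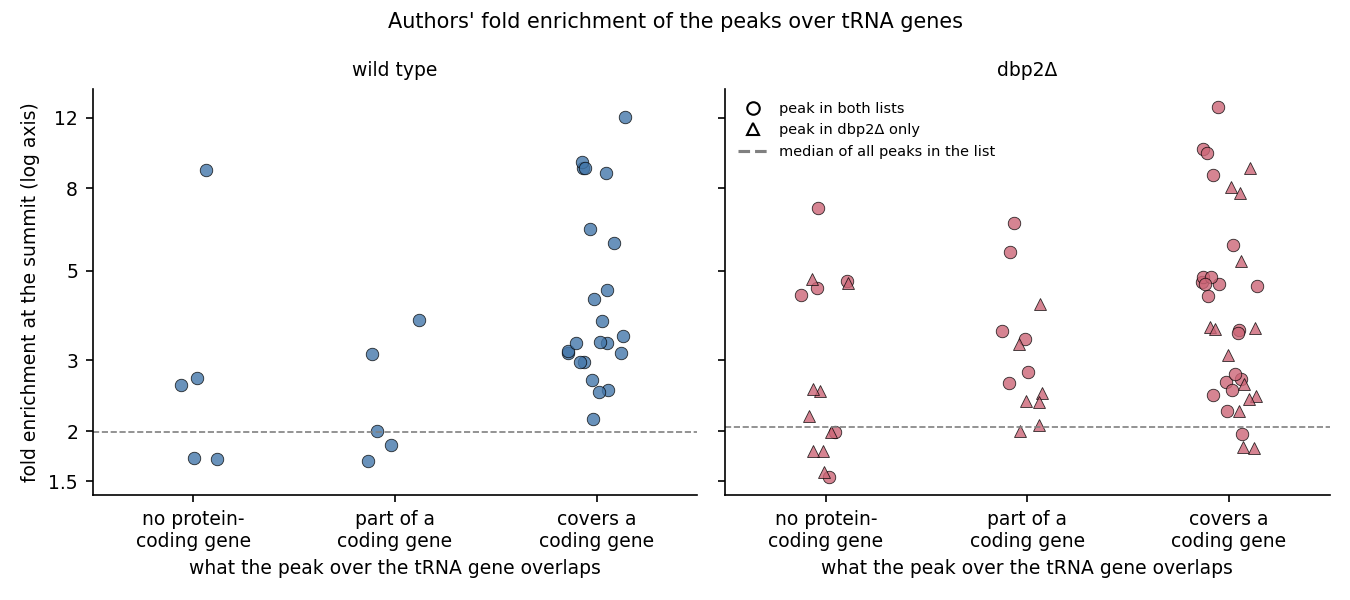
Fold enrichment, on a log axis, of the peak over each covered tRNA gene, 33 in the wild-type list and 63 in the dbp2Δ list, by what else the peak overlaps. Circles are genes covered in both lists and triangles genes covered in dbp2Δ alone; the dashed line is the median of all peaks of that list, 1.99 and 2.04. The highest values are in the class that covers a protein-coding gene.

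Fold enrichments spread widely within each class. Among the 33 genes covered in both lists they ran from 1.68 over a median of 3.16 to 12.04 in the wild-type list, and from 1.54 over 4.34 to 12.7 in the dbp2Δ list. The 30 covered in dbp2Δ alone ran from 1.58 over 2.5 to 8.98. The highest values of genes covered in both lists came from peaks that also covered protein-coding genes, with summits far from the tRNA gene. YNCP0020W (12.04 and 9.80) had its summits 2206 and 2209 bp past the 3′ end, in peaks over NOC4 and the asparagine synthetase gene ASN1. These peaks also held the snoRNA gene SNR45. YNCG0020C (9.33 and 8.65) lay 1543 and 1578 bp from summits of peaks over the ribosomal protein genes RPL24A and RPL30. YNCE0010W (8.98 and 12.7) lay 1542 and 1525 bp from summits of peaks over GCN4, the transcriptional activator of amino acid synthesis. SUF1 (8.98 and 10.01) was 597 and 528 bp from summits of peaks over ZEO1. All 4 sat on the 3′ side of a nearest gene that was 100% covered in both lists. YNCE0004C, described above, came next.

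The next members, YNCE0005W, EMT2 and YNCN0007W, also lay under peaks that covered a protein-coding gene in both lists. YNCE0005W (8.75 and 5.78) lay 863 and 813 bp from the summit of a peak over 3 protein-coding genes, 6 bp from MTC7. EMT2 (6.36 and 4.33), which encodes an elongator methionine tRNA, lay 1671 and 1673 bp from its summits. YNCN0007W (5.86 and 4.84) sat 279 bp from the ribosomal protein gene RPS7B, which was 100% covered in both lists. The wild-type summit there was 1107 bp past the 3′ end of the tRNA gene and the dbp2Δ summit 60 bp.

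Peaks shared with protein-coding genes also held the top 4 of the genes covered in dbp2Δ alone. YNCL0040W (8.98) shared its peak with RPS25B, YNCG0022W (8.09) with RPS25A, and YNCD0007C (7.79) with SES1 and RPS11A. The peak over YNCL0040W also held the snoRNA genes SNR61, SNR55 and SNR57. That over YNCG0022W also overlapped YGR026W, YGR027W-A and YGR027W-B. RPS25A, RPS25B and RPS11A encode proteins of the small ribosomal subunit and SES1 the cytosolic seryl-tRNA synthetase. Measured from the tRNA gene, with upstream as negative, the summits of these peaks lay at 1164, -7858 and -3385 bp. In the wild type YNCG0022W and YNCD0007C were covered over 13.9% and 12.2%, and YNCL0040W was 92 bp from a peak. YNCG0023C (5.30) shared its peak with POP6, a gene for a subunit of RNase P and RNase MRP, and with the snoRNA gene SNR46. TGA1 (3.63), YNCH0003C (3.60) and YNCG0041W (3.58) had 24.7%, 0% and 46.6% of their length covered in the wild-type list, with YNCH0003C 21 bp from a wild-type peak.

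The 30 genes covered in dbp2Δ alone thus divide by what the wild-type list held nearby. Of these, 7 were partly covered in the wild-type list, 9 had a wild-type peak within 250 bp, and 14 had none within that distance. For the 14, the nearest wild-type peak was 716 to 5404 bp away, with a median of 1690.5 bp. Their dbp2Δ peaks overlapped no protein-coding gene in 8 cases, part of one in 3, and covered one in 3. The last were SUF17 with DIS3, which encodes the catalytic subunit of the RNA exosome, EMT3 with YJL007C, and YNCP0004C with PPQ1, a protein phosphatase gene. YJL007C overlaps EMT3 itself, on the opposite strand, and the dbp2Δ peak there was 438 bp long. DIS3 was covered over 8.78% in the wild-type list and 80.7% in the dbp2Δ list. All 14 had a dbp2Δ summit within 250 bp of the 5′ end of the tRNA gene. Most of these peaks were shorter than the list median of 988.5 bp. A summit near the tRNA gene thus follows in large part from the way the 14 were chosen.

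Coverage of a tRNA gene went with the state of its neighbour in both strains. The nearest protein-coding gene, measured edge to edge, was a median of 275 bp and at most 1828 bp away, and 5 tRNA genes overlapped one. It had a peak for 49 tRNA genes in the wild-type list and 51 in the dbp2Δ list. Of these tRNA genes, 16 (32.7%) and 28 (54.9%) were covered. Where the nearest gene had no peak, 17 of 226 (7.52%) and 35 of 224 (15.6%) were covered. The dbp2Δ share was higher in both states.

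Where the nearest gene had no peak, most peaks over tRNA genes covered no protein-coding gene. They made up 9 of the 17 in the wild-type list and 25 of the 35 in the dbp2Δ list, against 1 of 16 and 3 of 28 beside a covered neighbour. This contrast follows in large part from the definitions, as a peak cannot cover a nearest gene that was classed as having none. With the nearest gene on either side taken into account, 26 of 83 (31.3%) and 42 of 84 were covered where at least 1 flanking gene had a peak. Where neither had one, 7 of 192 (3.65%) and 21 of 191 (11.0%) were covered. No protein-coding gene with a peak lay within 1000 bp of 8 of the 33 covered tRNA genes in the wild-type list and 25 of the 63 in the dbp2Δ list. The number of tRNA genes in such surroundings was nearly the same in both lists, 205 and 204.

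**Figure D3:**
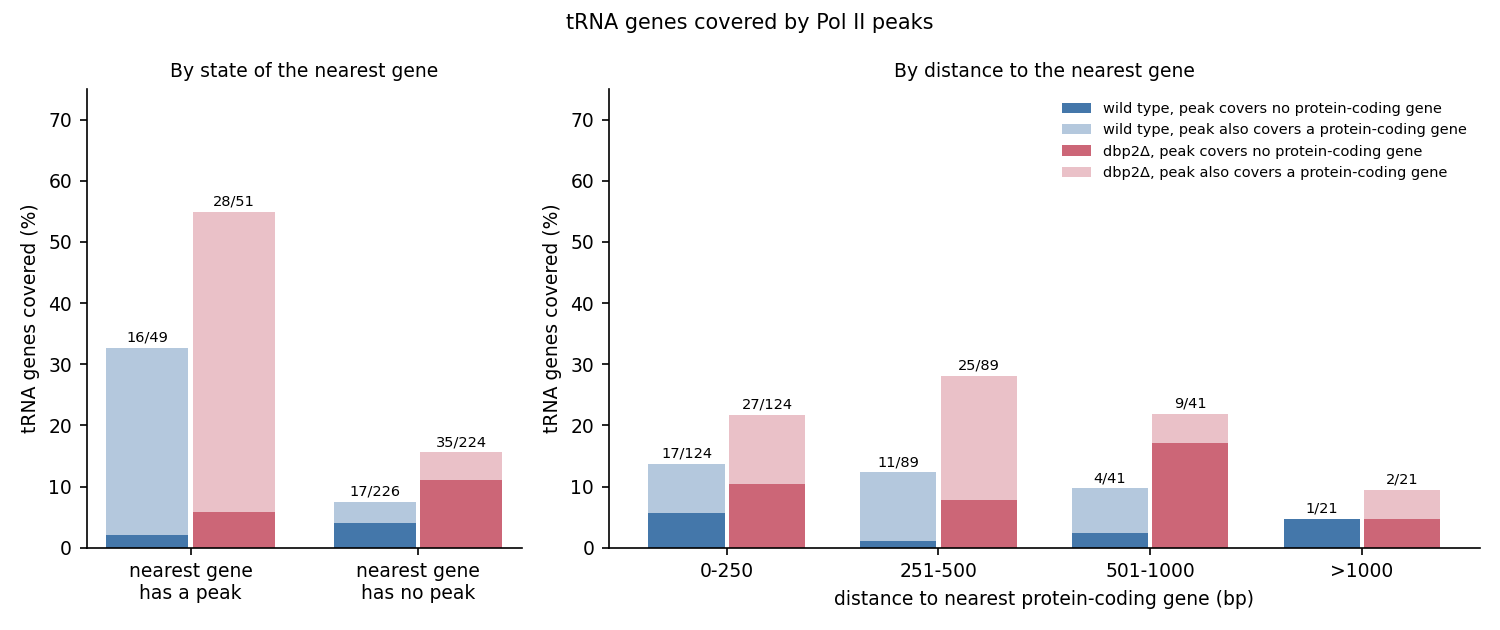
Share of tRNA genes with a peak in each list, by whether the nearest protein-coding gene has a peak (left) and by distance to it in bp (right). Dark parts of the bars are peaks that cover no protein-coding gene, and counts stand above the bars. The dbp2Δ share is the higher one in every pair.

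The shares by distance to the nearest gene moved somewhat with the bin edges. Within 250 bp of the nearest gene, 17 of 124 tRNA genes (13.7%) were covered in the wild-type list and 27 (21.8%) in the dbp2Δ list. Over 250 and up to 500 bp the counts were 11 and 25 of 89 (12.4% and 28.1%), and over 500 and up to 1000 bp 4 and 9 of 41 (9.76% and 22%). Beyond 1000 bp 1 and 2 of 21 were covered. With a nearest bin of up to 150 bp in place of 250 bp, its shares were 11.4% and 25.7%, the wild-type share lower and the dbp2Δ share higher than in the wider bin. When the nearest gene had a peak, the wild-type counts were 6 of 13 within 250 bp, 7 of 20 and 3 of 12 in the next bins and 0 of 4 beyond 1000 bp. In dbp2Δ the counts were 10 of 14, 13 of 21, 4 of 12 and 1 of 4. Where the nearest gene had no peak, the dbp2Δ shares in the same bins were 15.5%, 17.6%, 17.2% and 5.88%, and the wild-type shares were 9.91%, 5.80%, 3.45% and 5.88%.

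The shares also differed by the side of the neighbour on which a tRNA gene lay. A tRNA gene on the 3′ side of its nearest protein-coding gene was covered in 25 of 117 cases (21.4%) and one on the 5′ side in 8 of 153 (5.23%). The nearest gene had a peak about as often on either side, for 18.8% and 17.6%. In dbp2Δ the counts were 37 of 117 (31.6%) and 24 of 153 (15.7%). The largest class on the 3′ side was the convergent one, with the tRNA gene on the opposite strand, in which 21 (22.1%) and 32 (33.7%) of 95 were covered. The largest on the 5′ side was the tandem one, with both genes on the same strand, in which 7 (5.79%) and 17 (14.0%) of 121 were covered. In the divergent class 1 and 7 of 32 were covered, and in the class downstream on the same strand 4 and 5 of 22. Distance to the nearest gene was not matched between these classes.

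**Figure D4:**
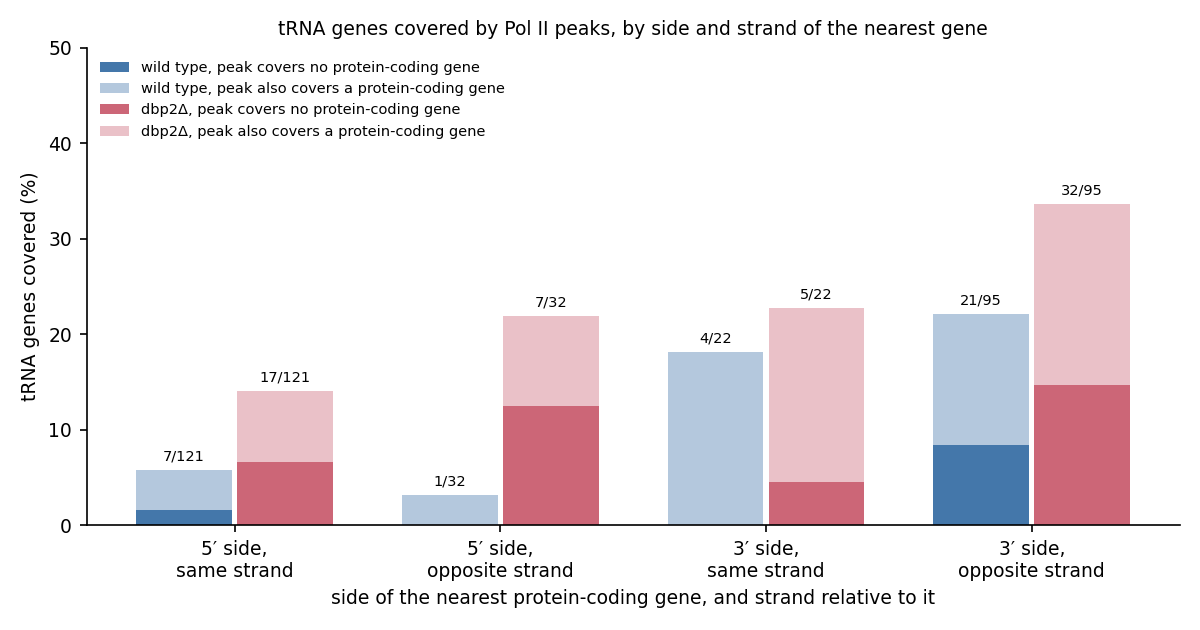
Share of tRNA genes with a peak in each list by position on the 5′ or 3′ side of the nearest protein-coding gene and by strand relative to it, with counts above the bars. Dark parts are peaks that cover no protein-coding gene. The shares on the 3′ side are above those on the 5′ side in the wild-type list, and the divergent class goes from 1 to 7 of 32.

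The sides differed more beside a covered neighbour. The nearest gene had a peak in both lists for 40 tRNA genes, of which 16 were covered in both lists, 8 in dbp2Δ alone and 16 in neither. On the 3′ side of such a gene, 13 of 18 tRNA genes were covered in the wild-type list and 16 in the dbp2Δ list. On the 5′ side it was 3 and 8 of 22. The 2 on the 3′ side that stayed uncovered were YNCB0016W, 597 bp past the ubiquitin-conjugating enzyme gene UBC4, and YNCM0021C, 539 bp past YMR050C. Among the 14 on the 5′ side were IMT4, which encodes the initiator methionine tRNA and lay 565 bp from VMA3, and SUP19, 1529 bp from ICL1. Distance to the covered gene was not matched between the sides, and its part in this difference was not tested.

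Beside a nearest gene without a peak, the convergent class still had the most covered members, 11 of 77 (14.3%) in the wild-type list and 17 of 78 (21.8%) in the dbp2Δ list. The tandem class had 5 of 100 and 11 of 98. The divergent class had 0 of 26 in the wild-type list and 4 of 26 in the dbp2Δ list, all 4 under peaks that covered no protein-coding gene. Peaks of that kind covered 8 of the 95 convergent tRNA genes in the wild-type list and 14 in the dbp2Δ list, and 2 and 8 of the 121 tandem ones.

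Summits of the dbp2Δ peaks gathered just upstream of tRNA genes. A summit lay within 250 bp of the 5′ end of 19 tRNA genes (6.91%) in the wild-type list and 48 (17.5%) in the dbp2Δ list. Around the 5′ ends of protein-coding genes the counts moved the other way, 877 (14.6%) in the wild-type list and 491 (8.18%) in the dbp2Δ list. Of the summits near tRNA genes, 12 of 19 and 34 of 48 were upstream, at a median of -70 and -65 bp from the 5′ end. The quartiles were -136 and 131.5 bp in the wild-type list and -87 and 10.75 bp in the dbp2Δ list, so the middle 50% of the dbp2Δ summits spanned fewer bases.

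**Figure D5:**
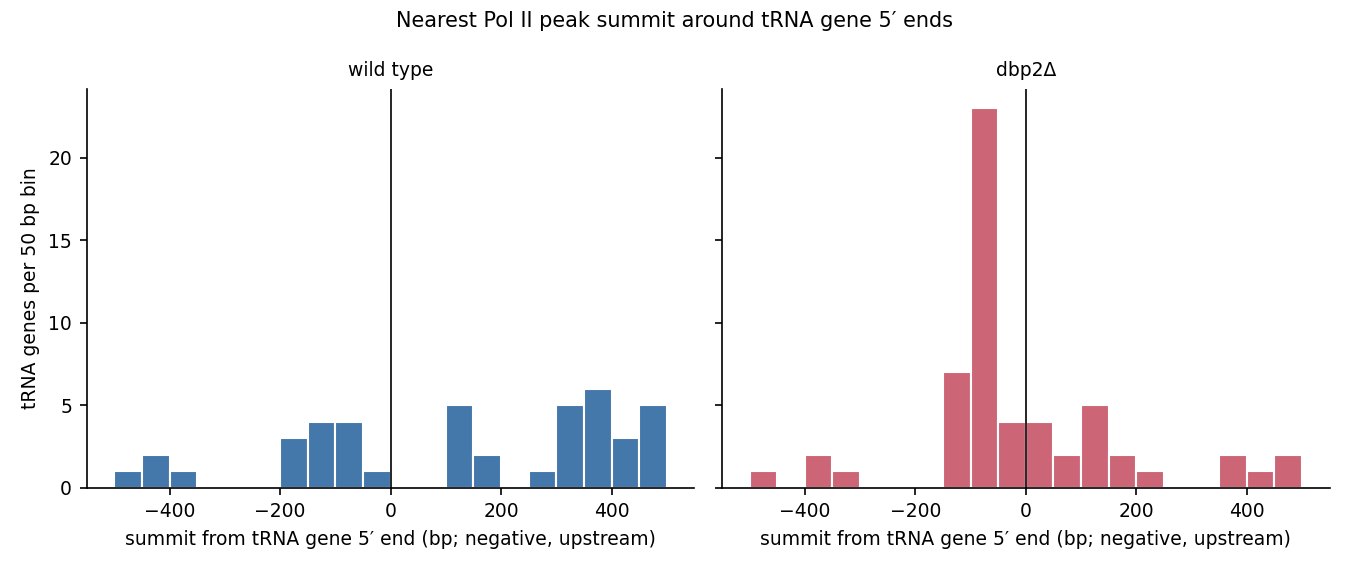
Position of the nearest peak summit relative to the 5′ end of tRNA genes, in bins of 50 bp along the direction of transcription (negative, upstream), for summits within 500 bp. In dbp2Δ 23 genes fall in the bin from -100 to -50 bp, against 4 in the wild-type list.

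A zone from 40 to 140 bp upstream, chosen after the positions were seen, held 9 of the 19 wild-type summits and 29 of the 48 dbp2Δ summits (60.4%). At protein-coding genes the same zone held 110 of 877 (12.5%) and 79 of 491 (16.1%). As the zone was drawn on the tRNA gene summits, a higher share there follows in part from that choice. Gene length was not matched between these classes either, and its part was not tested. At snoRNA genes, nearly all of them Pol II genes, a summit was within 250 bp of the 5′ end for 50 and 52 of 76, at medians of 53.5 and 67.5 bp downstream. The medians for tRNA genes and snoRNA genes thus lay on opposite sides of the 5′ end.

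Peaks that cover a tRNA gene and no protein-coding gene are short, with a median length of 567.5 bp in the dbp2Δ list, so their summits lie near the tRNA gene by the way they were chosen, and the counts below are a description. Among the 28 dbp2Δ peaks that covered none, 27 had a summit within 250 bp of the 5′ end, 20 of them upstream, with a median of -63 bp. Among the 35 tRNA genes whose dbp2Δ peak also covered a protein-coding gene, 18 had one, 13 upstream, with a median of -67 bp. TRR4, which encodes an arginine tRNA, was the exception among the 28, with its summit 541 bp upstream. In the wild type 8 of 10 and 7 of 23 had a summit in this window, 4 and 6 of them upstream.

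The genes covered in both lists allow the position to be read at the same genes. Of the 33, 15 had a wild-type summit within 250 bp of the 5′ end, and all 15 also had a dbp2Δ summit there, as had 10 more. SUP3, a tyrosine tRNA gene under peaks that also covered the amino acid permease gene TAT2, had its summit 70 bp upstream in the wild-type list and 96 bp in the dbp2Δ list. YNCE0021C had it 73 and 72 bp upstream, in peaks that covered GLC7, which encodes protein phosphatase 1, and YNCE0028C 70 and 73 bp upstream. By contrast the peak over YNCG0025C had its summit at -2550 bp in the wild-type list and -69 bp in the dbp2Δ list, and the peak over YNCB0006W at -1224 and -82 bp. Among the 30 covered in dbp2Δ alone, 20 had a dbp2Δ summit in the window, 17 of them upstream. Of the 212 covered in neither list, 2 had a summit in the window in the wild-type list and 3 in the dbp2Δ list.

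The summit fell inside the tRNA gene for 0 of 33 covered genes in the wild-type list and 5 of 63 in the dbp2Δ list. These 5 were YNCE0012W (4.34), YNCO0016W (3.54), YNCL0007W (1.99), YNCH0006C (1.97) and YNCL0049C (1.54). Nuclear tRNA genes occur in near-identical copies, and how reads that match several copies were placed is not given in the sources used here. Its part in these peaks was not tested. Peaks that covered no protein-coding gene reached a median of 134.5 bp upstream and 301.5 bp past the 3′ end in the wild-type list, and 258.5 and 78.0 bp in the dbp2Δ list.

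The share of covered tRNA genes varied between chromosomes, beside 12% and 22.9% over all 275 members. The counts per chromosome were small, and whether they differed by more than chance was not tested. Chromosome V had 8 of 20 in the wild-type list and 9 in the dbp2Δ list. Among all 20 there, covered or not, the nearest gene of 7 and 8 had a peak. Of the protein-coding genes on chromosome V, 24.3% and 24.7% were covered, the highest shares of any chromosome. Chromosome IV had 1 and 3 of 28, chromosome X 0 and 1 of 24, and chromosome VI 0 of 10 in both lists. The count rose from 2 to 8 of 21 on chromosome XII and from 4 to 9 of 36 on chromosome VII. Genes covered in dbp2Δ alone occurred on 14 of the 16 chromosomes, all but II and VI.

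The amino acid of most members could not be read from the gene table, which gives a symbol other than the systematic name for 47 of them. Among these, the initiator methionine genes IMT1 to IMT4 had 0 of 4 covered in both lists. The elongator methionine genes EMT1 to EMT5 had EMT2 in the wild-type list and EMT2 and EMT3 in the dbp2Δ list. Of 8 tyrosine genes known as nonsense suppressors, SUP3 was covered in both lists and SUP5 in dbp2Δ alone. SUP61, an essential serine tRNA gene, was covered over 37.6% in the wild-type list and 100% in the dbp2Δ list (2.44), beside the splicing factor gene BUD31. The genes with SUF symbols, known from frameshift suppression, had 2 of 15 and 4 of 15.

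Other Pol III genes carried no peak in either list. The signal recognition particle RNA gene SCR1, the RNase P RNA gene RPR1, the U6 gene SNR6, SNR52, RNA170 and the 5S rRNA genes RDN5-1 to RDN5-6 were at 0% covered, 0 of 11 in both lists. The shares were 12% and 22.9% among tRNA genes and 20.5% and 21.6% among all nuclear genes. With only 11 genes, 6 of them 5S rRNA genes, a count of 0 is not read as a difference from these shares. RPR1 lay 81 bp from a wild-type and 28 bp from a dbp2Δ peak, and RNA170 128 and 196 bp from one. RDN5-4 was 252 and 299 bp from one, and the other 8 were over 500 bp from any peak in both lists.

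Genes of the Pol III machinery are protein-coding and hence Pol II targets themselves. In a list of 16 genes for Pol III subunits, which is not complete and lacks RPB10, 7 had a peak in the wild-type list and 10 in the dbp2Δ list, against 19.9% and 20.6% of protein-coding genes. The 6 in the list that are shared with other polymerases, RPB5, RPB8, RPO26, RPC10, RPC19 and RPC40, were covered over 100% in both lists. The wild-type peak over RPC19 (5.69) was the one that also covered DBP2. RET1, which encodes the second largest subunit, was covered over 13.4% in the wild-type list and 100% in the dbp2Δ list, RPC11 over 15.0% and 100%, and RPC53 over 26.4% and 59.6%. RPO31, which encodes the largest subunit, stayed just under the threshold in the dbp2Δ list at 49.6%, against 7.14%. The TFIIIC genes had 0 of 6 in both lists. Of the TFIIIB genes only SPT15, which encodes the TATA-binding protein used by all nuclear polymerases, had a peak (1.96 and 2.68). The La protein gene LHP1 had one in both lists and the Pol III repressor gene MAF1 in neither. Of 16 genes of tRNA processing and export, 2 had a peak in the wild-type list and 3 in the dbp2Δ list. PUS1, a pseudouridine synthase gene, was covered in both, RPP1 in the wild type alone, and POP1 and the splicing endonuclease gene SEN15 in dbp2Δ alone.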

How the data were processed

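Chromatin immunoprecipitation of FLAG-tagged Rpb3 was sequenced with matched inputs. Trimming with Trimmomatic 0.36, alignment with Bowtie2 2.3.3.1 and build R64 are listed in the submitters' processing notes, without settings. Peaks, per the file headers, were called with MACS2 2.1.2 per strain in paired-end mode on 3 pooled immunoprecipitates against 3 pooled inputs at a q-value cutoff of 0.05, keeping 1 duplicate per position. The fragment size per the file headers, 260 and 290 bp, was also the length of the shortest peak. The deposited fold enrichment is a ratio to the local background. The deposited pileup signal, −log10 p-values and q-values were not used. Positions count from 1.

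Genes and coordinates came from the RefSeq table of R64, without 46 mitochondrial genes. The last letter of the systematic name, W or C, gave the strand. The table marks neither introns nor transposable-element genes. A gene had a peak at 50% coverage or more. The nearest protein-coding gene was taken edge to edge, with its 5′ or 3′ side as the side on which the tRNA gene lay. Summits were measured from the tRNA gene 5′ end. The calculation, in Python 3.11.15 with pandas 2.3.3, was tested on simulated data. Named genes were those under peaks without a protein-coding gene, the highest by fold enrichment in each class, those covered over 40 to 60% and those with a summit inside, and a few others were named after their values were seen. Members, lists and rules were chosen with earlier results of these data known. Planned counts by amino acid and of promoter motifs were not made, as no sequence was used here.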

Additional observations from a re-analysis of the deposited data

How the results depend on the processing

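The counts of covered tRNA genes stayed within 1.5 times of the reported value under most alternatives. With any overlap, full coverage, peaks of at least 2-fold enrichment, or peaks of at least 290 bp, the wild type had 41, 28, 29 and 32, and dbp2Δ had 66, 56, 53 and 63. The count in dbp2Δ only was then 26, 28, 26 and 31. When a summit within 250 bp of the tRNA gene was required, the wild-type count was 21, dbp2Δ had 48, and 30 were in dbp2Δ only. The count in the wild type only was 1 with any overlap (SUF16), 2 at 2-fold enrichment and 3 with the summit rule. Requiring that no wild-type peak lay within 250 bp, an alternative added after the values were seen, left 14 in dbp2Δ only. Peaks that covered a tRNA gene and no protein-coding gene numbered 5 and 15 when no overlap with a protein-coding gene was allowed, and 6 in the wild type at 2-fold enrichment. Where the nearest gene had no peak, the wild-type share was 3.87% when any overlap counted for that gene, and 3.65% and 11.0% were covered when neither flanking gene had one. The causes were not tested. Genes marked as transposable could not be left out, as the table does not mark them. Leaving out genes with a suffixed name, also added later, gave 6.70% and 15.4%. No paired analysis was possible because the libraries were pooled before peaks were called, and for the same reason no replicate could be left out. With the first distance bin ending at 150 bp, its shares were 11.4% and 25.7%, against 13.7% and 21.8%. What depth limits was not tested, since the lists hold only called peaks.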
